A study of Mus musculus with 20 samples.

Results

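The change in lung mRNA between embryonic days E16.5 and E18.5 was measured in control mouse embryos, as 5 E18.5 control arrays against 5 E16.5 control arrays. These are 10 of the 20 arrays of the study, chosen by their titles, and each array held RNA from the left lung lobe of 1 embryo. All embryos were on the C57Bl6 background. The controls carried the GR flox allele, a glucocorticoid receptor gene (Nr3c1) flanked for deletion, and their mesenchymal cells still expressed the receptor, per the labels. The other 10 arrays were mutants named GRCol1-Cre, 5 at each stage, in which Cre under the locus of the collagen gene Col1a2 removed the receptor from mesenchymal cells. They enter the shared estimate of the spread and 1 comparison at the end. The labels name 1 animal per array and give no litters, so p-values measure the spread between these embryos. Whole lobes were used, and more cells of a type cannot be told apart from more RNA per cell in any result here.

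Between these days the mouse lung passes from the canalicular to the saccular stage. Branching of the epithelial tree ends, the distal epithelium separates into flat type I cells, which carry gas exchange, and cuboidal type II cells, which secrete surfactant, and the mesenchyme between the air sacs thins. Fetal glucocorticoid rises over the same days, and surfactant lipids and proteins, fluid-absorbing sodium channels and a dense capillary bed have to be in place by birth. The comparison asks which genes follow this course in lungs with an intact receptor.

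The arrays were Affymetrix Mouse430A_2, and values are the deposited log2 values, so that a difference of 1 is a 2-fold change. Of 12393 genes with a probe set of their own, 8068 were tested, those with a log2 value above 4 in at least 5 of the 20 arrays. A value below 4 is called dim here. Changes are E18.5 minus E16.5 with the standard error (SE) of the fit, and a gene is said to have risen or fallen where limma's Benjamini-Hochberg adjusted p was under 0.05. Of the 8068 genes, 5718 changed (70.9%), 2851 higher (35.3%) and 2867 lower (35.5%) at E18.5, so that a change as such is the common state of a gene here. A change of at least 1.5-fold passed in 3171 genes (39.3%), 1747 upwards (21.7%) and 1424 downwards (17.6%). A change of at least 2-fold passed in 1684 (20.9%), 1011 upwards (12.5%) and 673 downwards (8.34%). The 5 arrays of one stage lay entirely beyond those of the other in 4131 genes (51.2%), 2093 with E18.5 above (25.9%) and 2038 with E18.5 below (25.3%). The median change was -0.01, and the median absolute change was 0.44. Gene lists are read below against these shares. Lists can share members, such as Lcn2, Lyz2, Fabp4, Il33, Cxcl15, Krt19, Pdpn and Sox9, so that their counts are not independent of each other. Some members that went against the rest of their list are named too, picked after their values were seen. A member dim in all E16.5 lungs and in no E18.5 lung could be tested largely because it rose, so that its rise supports nothing about its list. Such members are counted beside each list that held 3 or more of them and beside some short lists. Other lists held at most 2.

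**Figure D1:**
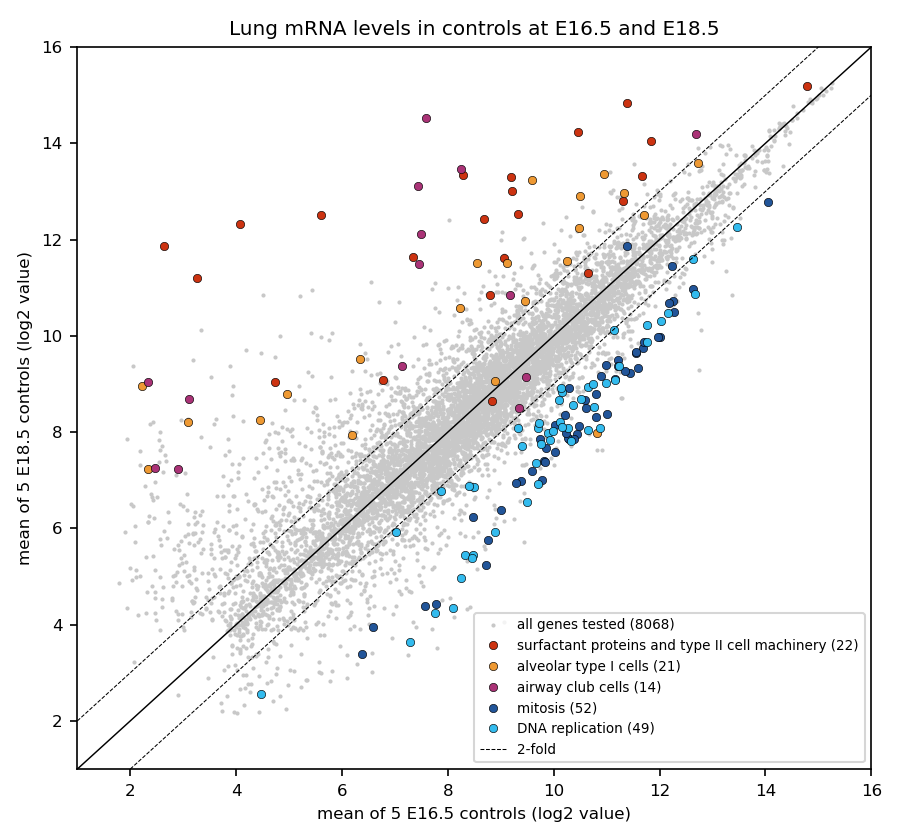
Mean log2 value of each of the 8068 genes tested in 5 E16.5 controls (horizontal axis) and 5 E18.5 controls (vertical axis), with 5 gene lists coloured and dashed lines at a 2-fold change. Type II, type I and club cell genes lie mostly above the upper dashed line, and the mitosis and DNA replication genes lie below the lower one, apart from 2 mitosis genes.

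Medians over all probe sets were 5.70 to 5.85 in the 10 control arrays, and arrays of one stage correlated at 0.978 to 0.995 at E16.5 and 0.965 to 0.995 at E18.5. E18.5 control replicate 3 stood apart. In 1401 of the 1684 genes with a 2-fold change it lay closer to the E16.5 mean than the mean of the other 4 E18.5 controls did, and over all 1684 it had covered a median share of 0.745 of their distance from the E16.5 mean. Without it 5809 genes changed. E16.5 control replicate 5 was the highest of its group in the list mean of the type II genes given below (9.44, the other E16.5 lungs 8.07 to 8.67). Sex was read from Xist and from genes of the Y chromosome. By these, 1 of the 5 E16.5 controls (replicate 5) and 3 of the 5 E18.5 controls (replicates 1, 4 and 5) were female. With sex as a covariate 5613 genes changed, and with male controls only (4 E16.5 lungs, and E18.5 replicates 2 and 3) 4721. In the last of these, replicate 3 is 1 of the 2 E18.5 lungs. The part of sex and of these 2 embryos in single results was tested only by these refits.

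The lung identity of the tissue was checked on its markers. Sftpc, the surfactant protein restricted to lung epithelium, was among the brightest genes at both stages (14.79 ± 0.13 and 15.19 ± 0.03, SD, n = 5), and the lung mesenchyme factors Tbx4 (8.99 and 8.84), Foxf1 (6.70 and 6.70) and Tcf21 (12.73 and 13.91) were above the dim level. The lung epithelial factor Nkx2-1 was dim on every control array (1.88 to 1.97), so that its own level could not be followed.

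The surfactant proteins and the other type II cell genes rose as a group. Of 22 tested genes 21 rose, 19 of them by at least 2-fold, none fell, and the median change was 3.59 (-0.01 over all genes). In 20 of the 22 all E18.5 arrays lay above all E16.5 arrays. The largest rise of all genes was that of Chil1, a chitinase-like protein secreted by type II cells and macrophages. It read 2.53, 2.56, 2.56, 2.55 and 2.99 in E16.5 controls 1 to 5 and 12.42, 12.33, 10.33, 11.97 and 12.24 in E18.5 controls 1 to 5, a change of 9.22 (SE 0.65, adjusted p = 1.08e-09). Every E16.5 value was dim, so the size of the rise is set partly by the floor of the values. Replicate 3 was the lowest of the 5 E18.5 lungs.

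Among the surfactant proteins themselves, Sftpd, a collectin that binds microbes and regulates the surfactant pool, read 3.58, 3.63, 3.54, 3.58 and 6.03 at E16.5 and 12.39, 12.70, 11.70, 12.36 and 12.48 at E18.5 (change 8.26, SE 0.48). All E16.5 lungs but replicate 5 were dim. Sftpb, whose peptide spreads surfactant lipid at the air surface and is needed to breathe at birth, read 8.93, 9.14, 8.81, 9.53 and 10.26 and then 12.52, 12.43, 12.43, 12.63 and 12.66 (change 3.20, SE 0.31, adjusted p = 3.49e-08). The 2 stages did not overlap, and replicate 5 was the highest at E16.5. The collectin Sftpa1 rose by 4.1 (SE 0.36). Sftpc, already near the top of the scale at E16.5, rose by only 0.40 (SE 0.07), and as the mean of all its probe sets it stood at 0.02 (adjusted p = 0.859). Near the top of the scale a probe may no longer follow its RNA, and whether this held here was not tested.

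The machinery that stores and handles surfactant rose with these proteins. Abca3, the lipid pump of the lamellar bodies, rose by 2.56 (SE 0.25), the protease Napsa, which trims surfactant proteins, by 3.75 (SE 0.49), the phosphate carrier Slc34a2 by 5.06 (SE 0.62), and Lpcat1, which makes the saturated phosphatidylcholine of surfactant, by 1.65 (SE 0.12). Other secreted products were Hc, complement component C5 (7.94, SE 0.50, dim in 4 of 5 E16.5 lungs), lysozyme Lyz2 (3.80, SE 0.32) and the chemokine Cxcl15 (3.77, SE 0.34). The alarmin Il33 rose by 4.31 (SE 0.52). The only tested gene of the list that did not pass was Etv5, an FGF-dependent factor of distal epithelium (-0.19, SE 0.14, adjusted p = 0.243), and it passed as a fall on another probe set (-0.60) and with the mean of its probe sets (-0.40).

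The promoters of Sftpb and Sftpa1 are shown because NKX2-1 is a known regulator of surfactant genes and the core of its recognition sequence, CTCAAG, can be read in them. They come from RefSeq on GRCm38.p6, run from 180 bases before to 20 bases after the annotated start, 5′ to 3′ on the gene's strand, and show in capitals each match on either strand. Sftpb lies at chr6:72304430-72304629 on the plus strand and has matches that begin -100 and -15 bases from the start. Sftpa1 lies at chr14:41131608-41131807 on the plus strand and has 1 match, at -166, and the distances count bases before the start as negative.

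Sftpb: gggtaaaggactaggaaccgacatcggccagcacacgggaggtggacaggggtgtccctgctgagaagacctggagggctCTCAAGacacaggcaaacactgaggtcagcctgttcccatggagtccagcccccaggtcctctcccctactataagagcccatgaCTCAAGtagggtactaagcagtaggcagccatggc
Sftpa1: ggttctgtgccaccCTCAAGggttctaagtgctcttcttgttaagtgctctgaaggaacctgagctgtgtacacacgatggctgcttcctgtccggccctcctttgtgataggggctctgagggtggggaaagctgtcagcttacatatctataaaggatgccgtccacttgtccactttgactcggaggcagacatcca

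A promoter of 300 bases (250 before and 50 after the start) was matched for 15 of the 22 type II genes, and 4 of them held CTCAAG (26.7%), against 718 of the 5160 tested genes with a single promoter (13.9%), 3 of 9 club cell promoters (33.3%), 1 of 11 type I promoters (9.09%) and 85 of the 609 promoters of genes that rose by at least 2-fold, and 15.9% of all promoters of the table. The type II promoters had a median of 5 CpG per 300 bases, against 4 in the club cell list, 5 in the chemokine and interferon list, 14 in all genes that rose by at least 2-fold and 22 over all tested genes. TTTGAA, a motif of cell cycle genes given below, stood in as many type II promoters (4 of 15, 26.7%), against 11.8% of tested genes. The letters of the TATA box, TATAAA, also stood in 4 of 15 (26.7%), against 7.03% of tested genes and 13.3% of the promoters of genes that rose by at least 2-fold. A match says only that its letters are present.

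Type I cell genes rose nearly as uniformly. Of 21 tested genes 19 rose, 17 by at least 2-fold, with a median change of 2.39, and 3 of the 21 were dim in all E16.5 lungs and in no E18.5 lung. The water channel Aqp5 went from dim in every lung (2.21, 2.20, 2.22, 2.18 and 2.34) to 9.17, 9.45, 7.98, 8.78 and 9.39, a change of 6.72 (SE 0.33). Ager, the receptor for glycation end products that is abundant in flat alveolar cells, read 9.25, 9.64, 9.31, 9.54 and 10.17 at E16.5 and 13.27, 13.33, 12.86, 13.27 and 13.42 at E18.5 (3.65, SE 0.21). No E16.5 lung reached the lowest E18.5 lung in either gene. The homeodomain protein Hopx rose by 2.40 (SE 0.25), the membrane glycoprotein Pdpn by 1.26 (SE 0.10), the proteoglycan Spock2 by 5.11 (SE 0.43) and the vascular growth factor Vegfa, which type I cells supply to the capillaries, by 2.35 (SE 0.20). Of the list, 1 gene fell, the growth factor-binding protein Igfbp2, from 10.82 ± 0.18 to 7.98 ± 0.80 (SD, n = 5, change -2.84, SE 0.32), and its E18.5 lungs all lay below the E16.5 lungs. The guidance ligand Sema3e did not pass (0.17, adjusted p = 0.249), while another of its probe sets rose by 0.46 (adjusted p = 0.00101), as did the one used with array weights (0.24).

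**Figure D2:**
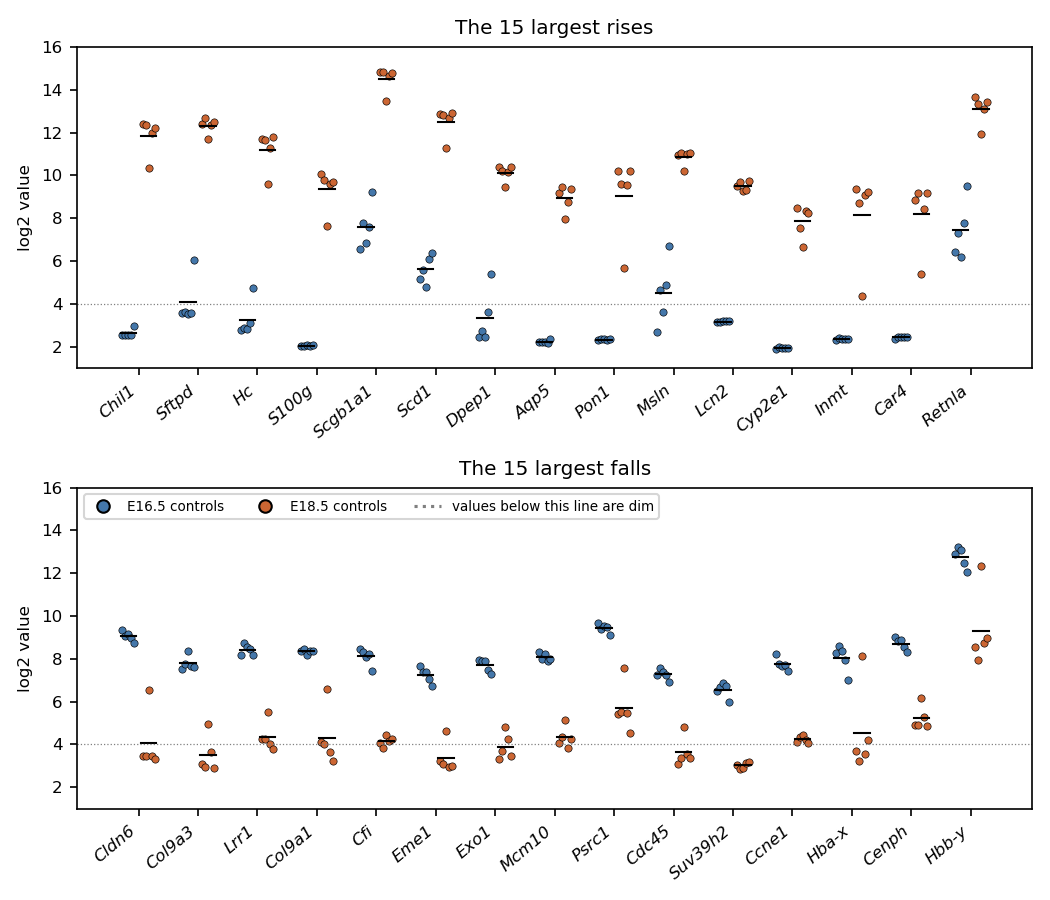
Log2 value in each of the 10 control lungs for the 15 largest rises (upper panel) and the 15 largest falls (lower panel). Blue points are E16.5, orange points are E18.5, short bars are means of 5 arrays and the dotted line marks a log2 value of 4. The stages overlap only in the embryonic globins Hba-x and Hbb-y.

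In the conducting airway, the club cell genes had the highest median change of the epithelial lists, 4.47 over 14 tested genes, of which 12 rose, all by at least 2-fold. The secretoglobin Scgb1a1, the main secreted protein of club cells, read 6.58, 7.76, 6.83, 7.60 and 9.21 and then 14.85, 14.85, 13.47, 14.65 and 14.77 (6.92, SE 0.45, adjusted p = 5.16e-10), with replicate 3 the lowest at E18.5. Its relative Scgb3a2 was already bright at E16.5 and rose by 1.5 (SE 0.19). Cyp2f2, a cytochrome P450 of club cells, rose by 4.04 (SE 0.26), the carbonyl reductase Cbr2 by 5.21 (SE 0.37), the resistin-like protein Retnla by 5.67 (SE 0.63) and the paraoxonase Pon1 by 6.71 (SE 0.92). Pon1 was dim in all E16.5 lungs and read 5.65 in E18.5 replicate 3 against a group mean of 9.04. The 2 genes that fell were the receptor Cckar (-0.34) and the potassium channel Kcnk1 (-0.84). Of the 14 genes, 4 were dim in all E16.5 lungs and in no E18.5 lung.

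Ciliated cell genes rose less. Of 22 entries only 7 could be tested, and 5 rose, 3 by at least 2-fold (median 0.89). The tubulin-binding protein Tppp3 rose by 2.57 (SE 0.17), the radial spoke gene Rsph1 by 2.07 (SE 0.47) and Foxj1, the master regulator of motile cilia, by 1.21 (SE 0.25). The tubulin Tubb4b, which many cells express, fell slightly (-0.21), and stood at -0.11 with male controls only (adjusted p = 0.269). Of the 19 markers of neuroendocrine, basal and mucous cells 2 were tested: the basal keratin Krt15 rose (2.82, SE 0.72) and the neuroendocrine hydrolase Uchl1 fell (-2.74, SE 0.48). The basal cell keratin Krt5 was above the dim level in too few arrays to be tested (2.57 to 5.37).

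Some regulators of the growing distal tip fell. Sox9, the transcription factor of tip progenitors, read 8.64, 8.03, 8.27, 8.28 and 8.32 at E16.5 and 6.41, 6.12, 6.77, 6.30 and 6.05 at E18.5, a fall of 1.98 (SE 0.24) with no overlap. Sox9 also stands in the cartilage list below, and whether its fall came from tip cells or from cartilage was not tested. Mycn, which supports tip proliferation, fell by 1.79 (SE 0.20). Id2 (-0.15, adjusted p = 0.357) and the ligand Bmp4 (-0.01, adjusted p = 0.92), also marks of the distal tip, did not pass, although Id2 did when E16.5 replicate 1 was left out (-0.29). The list of 25 tested epithelial lineage genes had 13 that rose and 5 that fell (median 0.29). The other 3 that fell were the forkhead factors Foxp2 (-1.10), Foxa1 (-0.28) and Foxa2 (-0.33). Foxa1 did not pass without E16.5 replicate 4 (-0.25) or 5 (-0.22) or E18.5 replicate 3 (-0.23). The factor Cebpa, which drives type II differentiation, rose by 2.21 (SE 0.24), and the epithelial factor Tfcp2l1 by 4.13 (SE 0.29) from a dim mean.

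Cldn6, a claudin of embryonic epithelium, had the largest fall of all 8068 genes. It read 9.36, 9.06, 9.15, 8.99 and 8.74 at E16.5 and 3.47, 3.47, 6.56, 3.47 and 3.33 at E18.5, a change of -5.0 (SE 0.50, adjusted p = 5.41e-08). At E18.5 it was dim in 4 of 5 lungs, and replicate 3 kept an intermediate level. Of 20 keratins, cadherins and tight junction genes 15 rose and 2 fell, Cldn6 and the adhesion molecule Epcam (-1.05). The keratin Krt19 (1.74, SE 0.17), the junction molecule F11r (1.29, SE 0.12) and the lung claudin Cldn18 (0.81, SE 0.13) were among those that rose.

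Genes of ion transport and fluid clearance, with which the fetal lung turns from secreting to absorbing liquid, rose in 19 of 22 tested cases, 15 by at least 2-fold (median 1.62), and 4 of the 22 were dim in all E16.5 lungs and in no E18.5 lung. All 3 subunits of the epithelial sodium channel were among them. Scnn1a read 1.89, 2.09, 1.93, 2.3 and 3.16 at E16.5, dim in every lung, and 7.14, 7.33, 5.55, 7.10 and 7.25 at E18.5 (4.60, SE 0.41). Scnn1b rose by 2.88 (SE 0.25) and Scnn1g by 3.18 (SE 0.28). The endothelial water channel Aqp1 rose by 3.0 (SE 0.21). Slc12a2, the chloride importer of the secreting fetal epithelium, rose by 0.62 (SE 0.14), with overlapping groups. The chloride channel Clcn5 was the gene of this list that fell (-0.80).

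Surfactant is mostly lipid, and the genes of its synthesis rose selectively. Of 14 tested fatty acid genes 10 rose and 3 fell (median 0.84). The desaturase Scd1 rose by 6.91 (SE 0.42) from 5.61 ± 0.65 to 12.51 ± 0.69 (SD, n = 5), the fatty acid synthase Fasn by 1.53 (SE 0.21) and the elongase Elovl1 by 1.23 (SE 0.11). Elovl6, which elongates palmitate to stearate, fell by 2.32 (SE 0.23), and its E18.5 lungs all lay below the E16.5 lungs. The other 2 that fell were the desaturases Fads2 (-0.99) and Fads1 (-0.30). Acly, which supplies acetyl-CoA, did not pass (0.15, adjusted p = 0.366), while another of its probe sets rose by 0.32 (adjusted p = 0.000903).

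Phospholipid genes rose in 15 of 16 tested cases and fell in none (median 0.84), 6 of them by at least 2-fold. The phosphatase Lpin1 rose by 2.33 (SE 0.28), the acyltransferase Gpam by 1.53 (SE 0.19), the cholinephosphotransferase Chpt1 by 1.19 (SE 0.12) and Pcyt1a, the rate-limiting enzyme of phosphatidylcholine synthesis, by 0.89 (SE 0.11). Cholesterol genes did not rise with them. Of 18 tested, 2 rose and 8 fell (median -0.18), and only 5 fell without any one of E16.5 replicates 1, 2, 3 or 4 or E18.5 replicates 1 or 2. The reductase Dhcr7 fell by 1.52 (SE 0.13) and the epoxidase Sqle by 0.79 (SE 0.16), while the synthase Hmgcs1 stood at 0.03 (adjusted p = 0.765). Genes of lipofibroblasts, the mesenchymal cells that store neutral lipid for the type II cells, rose in 11 of 13 cases, and Angptl4 fell (median 0.98). The fatty acid carrier Fabp4 rose by 3.27 (SE 0.60), lipoprotein lipase Lpl by 1.52 (SE 0.14) and the droplet protein Plin2 by 0.57 (SE 0.08).

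Cell division genes fell almost without exception. Of 52 tested mitosis genes 51 fell, 50 of them by at least 2-fold, and all 51 had every E18.5 lung below every E16.5 lung (35.5% of all genes fell, and 25.3% fell without overlap). The median change was -2.15. The list mean was 10.36 to 10.56 in the E16.5 lungs and 8.08 to 8.14 in the E18.5 lungs other than replicate 3, which stood between at 9.28. Cdk1, the kinase that drives entry into mitosis, read 11.97, 11.76, 11.75, 11.60 and 11.39 and then 9.46, 9.58, 10.80, 9.47 and 9.39 (-1.95, SE 0.26, adjusted p = 1.98e-06). The proliferation marker Mki67 read 12.22, 11.96, 12.12, 12.30 and 12.72 and then 10.35, 10.41, 11.29, 10.03 and 10.39 (-1.77, SE 0.22). In both, 4 E18.5 lungs were close together and replicate 3 lay higher, still below the lowest E16.5 lung. DNA topoisomerase Top2a fell by 2.03 (SE 0.24), the kinases Plk1 by 2.43 (SE 0.31) and Aurkb by 2.47 (SE 0.29), the activator of the anaphase-promoting complex Cdc20 by 1.54 (SE 0.19), and Foxm1, a transcription factor of mitotic genes, by 3.17 (SE 0.44). The centromere protein Cenph (-3.48, SE 0.30) was among the 15 largest falls, as was the spindle protein Psrc1 (-3.72, SE 0.41). The exception was securin, Pttg1, which rose from 11.38 ± 0.13 to 11.87 ± 0.11 (SD, n = 5, change 0.49, SE 0.08). Another of its probe sets also rose (0.51, adjusted p = 2e-05). The gene can share sequence with related copies, and whether its probe sets separate them was not tested.

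All 49 tested DNA replication genes fell, each by at least 2-fold and each without overlap (median -1.90). Mcm5, a subunit of the replicative helicase, read 10.75, 10.23, 10.43, 10.25 and 9.99 at E16.5 and 7.43, 7.88, 8.37, 7.84 and 7.54 at E18.5 (-2.52, SE 0.20). Its partner Mcm2 fell by 1.90 (SE 0.13), the origin-licensing factor Cdc6 by 2.96 (SE 0.21) and the clamp Pcna by 1.20 (SE 0.13). The transcription factor E2f1 fell by 1.09 (SE 0.12). The largest falls were those of Mcm10 (-3.75, SE 0.31), Cdc45 (-3.64, SE 0.35) and cyclin E, Ccne1 (-3.51, SE 0.22). The DNA repair nucleases Exo1 (-3.80, SE 0.36) and Eme1 (-3.88, SE 0.38), the histone methyltransferase Suv39h2 (-3.55, SE 0.23) and Lrr1, a ubiquitin ligase adaptor that acts on the replisome (-4.06, SE 0.27), belonged to neither list and were also among the 15 largest falls.

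These promoters are shown because members of the 2 lists fell together and their motifs can be compared. Late cell cycle genes are known for the cell cycle homology region, TTTGAA, often near a CCAAT box, and replication genes for E2F sites, searched here as TTTCCCGC, TTTGGCGC, TTTCGCGC or TTTGCCGC. Both strands were searched, and overlapping matches were counted. The sequences are again RefSeq's on GRCm38.p6 from 180 bases before to 20 after the start, 5′ to 3′ on the gene's strand, with capitals for every match to any of the 3 motifs. Cdk1 lies at chr10:69352893-69353092 on the minus strand, Cdc20 at chr4:118437324-118437523 on the minus strand, Top2a at chr11:99024170-99024369 on the minus strand, Mki67 at chr7:135716360-135716559 on the minus strand, Mcm5 at chr8:75109329-75109528 on the plus strand and Cdc6 at chr11:98907971-98908170 on the plus strand.

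Cdk1: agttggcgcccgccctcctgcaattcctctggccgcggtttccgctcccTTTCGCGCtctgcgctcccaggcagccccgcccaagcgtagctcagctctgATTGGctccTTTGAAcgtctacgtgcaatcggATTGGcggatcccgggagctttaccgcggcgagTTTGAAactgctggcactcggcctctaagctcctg
Cdc20: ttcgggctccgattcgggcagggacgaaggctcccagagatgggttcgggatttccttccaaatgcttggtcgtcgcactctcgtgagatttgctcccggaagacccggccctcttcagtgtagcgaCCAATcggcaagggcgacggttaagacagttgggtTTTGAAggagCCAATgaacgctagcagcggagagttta
Top2a: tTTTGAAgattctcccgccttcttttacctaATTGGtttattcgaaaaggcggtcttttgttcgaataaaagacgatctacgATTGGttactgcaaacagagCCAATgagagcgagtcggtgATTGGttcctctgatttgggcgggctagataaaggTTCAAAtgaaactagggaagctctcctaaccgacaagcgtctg
Mki67: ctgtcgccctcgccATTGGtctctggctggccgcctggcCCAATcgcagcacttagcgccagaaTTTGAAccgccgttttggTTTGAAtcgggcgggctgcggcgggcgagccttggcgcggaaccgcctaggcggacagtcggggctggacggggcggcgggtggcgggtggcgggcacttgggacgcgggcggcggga
Mcm5: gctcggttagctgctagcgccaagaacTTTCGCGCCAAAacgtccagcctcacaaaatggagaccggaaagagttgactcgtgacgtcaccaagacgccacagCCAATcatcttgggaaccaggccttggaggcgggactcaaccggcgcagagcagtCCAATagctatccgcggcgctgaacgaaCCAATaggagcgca
Cdc6: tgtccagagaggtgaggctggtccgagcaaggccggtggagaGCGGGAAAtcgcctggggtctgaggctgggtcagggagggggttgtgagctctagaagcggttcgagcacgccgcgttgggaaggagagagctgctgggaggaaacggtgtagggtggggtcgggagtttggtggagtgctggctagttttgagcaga

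The cell cycle homology region began at -71 and -15 in Cdk1, at -18 in Cdc20, at -179 and -23 in Top2a and at -116 and -98 in Mki67. E2F matches began at -153 and -149 in Mcm5, overlapping, at -138 in Cdc6 and at -131 in Cdk1. The CCAAT box stood in the 4 mitosis promoters shown and 3 times in Mcm5, at -77, -22 and 6, and in none of Cdc6. Over the lists, 28 of 39 mitosis promoters held TTTGAA (71.8%), against 2 of 34 replication promoters (5.88%), 11.8% of tested genes and 17.9% of the 32841 promoters of the table. CCAAT stood in 74.4% of mitosis and 55.9% of replication promoters, against 39.4% of tested genes. The E2F letters stood in 11 of 34 replication promoters (32.4%), 7.69% of mitosis promoters and 4.79% of tested genes. Among all genes that fell by at least 2-fold, 23.9% of 456 promoters held TTTGAA and 10.1% an E2F match, against 9.69% and 1.48% of the 609 promoters of genes that rose by at least 2-fold.

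Inhibitors of cyclin-dependent kinases and growth arrest genes rose in 19 of 26 cases and fell in 3 (median 0.76). Cdkn1a, the inhibitor p21, read 6.19, 6.24, 6.22, 6.24 and 6.22 at E16.5 and 8.15, 8.13, 7.74, 7.97 and 7.80 at E18.5 (1.73, SE 0.12), with no overlap. Cdkn2b, which blocks the G1 kinases, rose by 5.52 (SE 0.41), the Krüppel-like factor Klf9 by 2.99 (SE 0.18) and Gadd45g by 2.31 (SE 0.24). The imprinted inhibitor Cdkn1c fell by 0.62 (SE 0.10), Cdkn2c by 0.62 (SE 0.20), with overlapping groups and not with male controls only (-0.30), and Gas2 by 2.39 (SE 0.18).

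**Figure D3:**
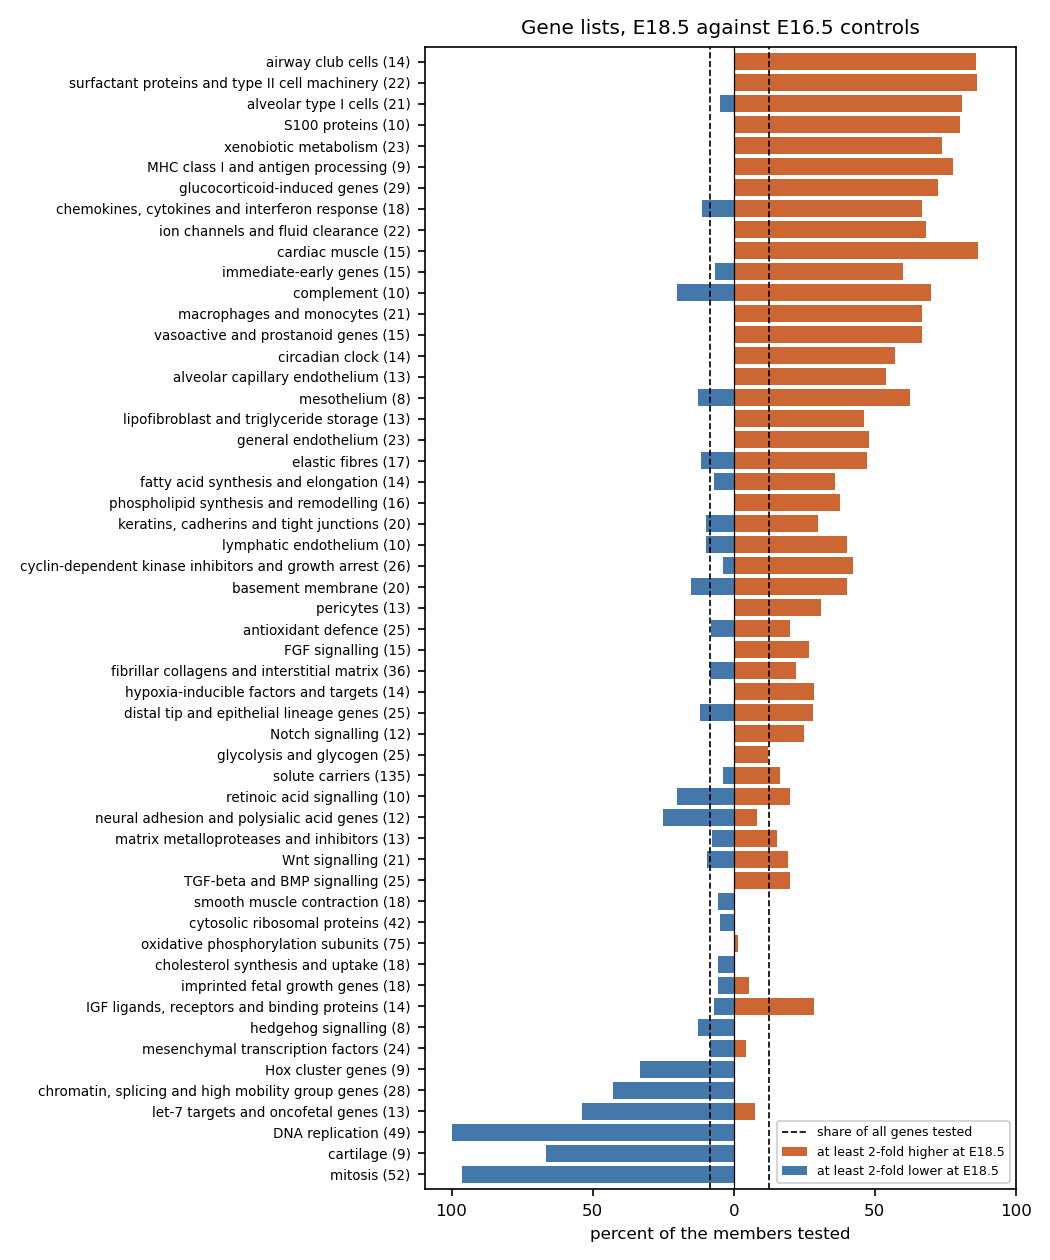
Percent of the tested members of each gene list with 8 or more tested members that changed by at least 2-fold (adjusted p under 0.05), upwards in orange and downwards in blue, with the lists ordered by their median change and the number tested in brackets. Dashed lines mark the shares of all genes tested, 12.5% upwards and 8.34% downwards.

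Among the lists of fetal growth genes, the let-7 and oncofetal list fell most. Of 13 tested let-7 targets and oncofetal genes 9 fell, 7 by at least 2-fold (median -1.18). Hmga2, a chromatin protein of embryonic cells and a classic let-7 target, read 8.29, 8.17, 8.29, 8.32 and 7.94 and then 6.15, 6.12, 6.36, 6.22 and 6.61 (-1.91, SE 0.16). The mRNA-binding protein Igf2bp1 fell by 1.29 (SE 0.16), the phosphatase Dusp9 by 2.53 (SE 0.21) to a dim level, and Igdcc4 by 2.14 (SE 0.20). The 1 member that rose was alpha-fetoprotein, Afp, taken up with the liver markers below, and without E18.5 replicate 1 or 4 none rose. Of 18 imprinted growth genes 4 rose and 8 fell, 1 of the falls by at least 2-fold (median -0.21). Over all genes 35.5% fell, and 8.34% by at least 2-fold. The growth factor Igf2 fell by 0.96 (SE 0.21), with overlapping groups, and stood at -0.63 with male controls only (adjusted p = 0.0706). The amino acid carrier Slc38a4 fell by 1.81 (SE 0.11), and the noncoding RNA Meg3 rose by 1.62 (SE 0.26). In the IGF system 4 of 14 genes rose and 7 fell, 1 of the falls by at least 2-fold, or 4 fell with male controls only (median -0.21). Igf1 fell (-0.47, SE 0.10), and its other probe sets fell further (-0.93, adjusted p = 0.00233, and -1.04, adjusted p = 0.000931). The binding proteins Igfbp6 (4.63, SE 0.33), Igfbp7 (2.56, SE 0.15) and Igfbp3 (2.11, SE 0.27) rose and Igfbp2 fell as given above.

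Genes known to be induced by glucocorticoid rose in 25 of 29 cases, 21 by at least 2-fold, and 2 fell (median 1.73). Tsc22d3, a direct target of the receptor, read 8.18, 8.33, 8.50, 8.52 and 8.93 at E16.5 and 10.48, 10.27, 9.29, 10.15 and 10.43 at E18.5 (1.63, SE 0.18, adjusted p = 2.59e-07). No E16.5 lung reached the lowest E18.5 lung. The lipocalin Lcn2 rose by 6.32 (SE 0.73) from dim in every E16.5 lung, the sulfotransferase Sult1a1 by 5.18 (SE 0.39), the kinase Pdk4 by 3.0 (SE 0.20), the zinc finger factor Zbtb16 by 2.74 (SE 0.44), with overlapping groups, and metallothionein Mt1 by 1.96 (SE 0.26). Fkbp5, the cochaperone that restrains the receptor, rose by 0.77 (SE 0.18), and with male controls only it stood at 0.55 and did not pass (adjusted p = 0.0565). The 2 that fell were Cdkn1c and Angptl4 (-0.81). The half-site letters of the receptor, AGAACA, stood in 2 of 16 promoters of this list (12.5%) and in 11.7% of tested genes.

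Of 7 tested genes for steroid receptors and the enzymes and chaperones that act with them, 5 rose and 2 fell (median 1.20). Nr3c1 rose from 8.78 ± 0.22 to 9.42 ± 0.22 (SD, n = 5), a change of 0.63 (SE 0.17, adjusted p = 0.00302), and with male controls only it stood at 0.56 and did not pass (adjusted p = 0.0573). Hsd11b1, which regenerates active hormone, read 7.17, 8.15, 7.0, 8.19 and 9.59 and then 12.43, 12.54, 12.18, 12.48 and 12.42 (4.39, SE 0.43). H6pd, which supplies its cofactor, rose by 1.47 (SE 0.12), and the ketosteroid reductase Akr1c14 rose by 5.61 (SE 0.52). The 2 that fell were the chaperones of the receptor Fkbp4 (-0.84) and Hsp90aa1 (-0.34). Another probe set of Fkbp4 did not pass (-0.09, adjusted p = 0.48), while the other probe sets of Hsp90aa1 fell further (-0.66 and -0.67). Circadian clock genes rose in 13 of 14 cases, 8 by at least 2-fold, and none fell (median 1.25). Npas2 rose by 2.00 (SE 0.24), Per1 by 1.84 (SE 0.27) and Dbp by 0.66 (SE 0.15), while Cry1 stood at 0.25 (adjusted p = 0.0515) and passed without E16.5 replicate 2 (0.28) or 5 (0.27) or E18.5 replicate 3 (0.33). Cry1 also passed in other settings, such as the controls fitted alone (0.25), array weights (0.32) and a stricter floor of log2 6 (0.25). Whether the hour of collection differed between the stages was not tested.

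Immediate-early genes, which respond within minutes to stimulation and handling, rose in 12 of 15 cases, 9 by at least 2-fold (median 1.42). Fos read 4.24, 4.49, 4.32, 4.06 and 4.57 at E16.5 and 7.46, 7.54, 5.50, 7.51 and 7.19 at E18.5 (2.70, SE 0.36). Ier3 rose by 3.62 (SE 0.22) and Klf4 by 2.20 (SE 0.25). Egr1, of the same class, fell by 0.84 (SE 0.24), with overlapping groups, and stood at -0.76 with male controls only (adjusted p = 0.0730). The growth regulator Myc also fell (-1.47). Of 14 hypoxia genes 7 rose and 2 fell (median 0.33), or 1 fell without E18.5 replicate 1, 2, 4 or 5. The vasodilator peptide Adm rose by 2.67 (SE 0.20) from dim in every lung and Bnip3 by 1.37 (SE 0.23). The glucose carrier Slc2a1 stood at -0.17 (adjusted p = 0.444).

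The pathways of branching morphogenesis showed smaller and mixed changes. In hedgehog signalling, through which the epithelium instructs the mesenchyme, 5 of 8 tested genes fell and 1 rose (median -0.27). The transcription factor Gli1, both an effector and a readout of the pathway, fell by 1.76 (SE 0.30), from 6.23, 5.48, 6.04, 5.79 and 5.95 to 3.58, 4.56, 5.03, 3.82 and 3.70. The receptor Ptch1 fell by 0.32 (SE 0.09), and the inhibitor Hhip rose by 0.65 (SE 0.16), and stood at 0.45 with male controls only (adjusted p = 0.0685). The ligand Shh was dim (2.51 to 2.97).

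In Wnt signalling 7 of 21 rose and 6 fell (median 0.07), and 11 rose without E18.5 replicate 3 and E16.5 replicate 5 together. The epithelial ligand Wnt7b fell by 1.06 (SE 0.16) and the agonist Rspo2 by 1.56 (SE 0.27), while the mesenchymal ligand Wnt2 stood at 0.02 (adjusted p = 0.872) and the secreted inhibitor Notum rose by 2.18 (SE 0.26). The target Axin2 stood at 0.29 (adjusted p = 0.0744) and passed without E18.5 replicate 3 (0.45) or without E16.5 replicate 5 (0.36). Axin2 also passed with array weights (0.48) or the replicate number as a block (0.29). In FGF signalling 10 of 15 rose (6 with male controls only) and 3 fell (median 0.35), with rises of Fgf1 (1.14, SE 0.14), the receptor Fgfr4 (1.07, SE 0.18) and the feedback inhibitor Spry1 (1.19, SE 0.09). The branching ligand Fgf10 was dim (2.14 to 2.22).

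Of 25 TGF-beta and BMP genes 10 rose and 8 fell (median 0.03), or 3 fell with male controls only, with rises of Bmp6 (3.0, SE 0.15) and Bmp2 (1.72, SE 0.33). In Notch signalling 5 of 12 rose (8 with male controls only), including the target Hey1 (1.76, SE 0.19), and only Heyl fell (-0.85, SE 0.14), or 2 genes without E16.5 replicate 1 or 2. In retinoic acid signalling 3 of 10 rose and 2 fell. The retinaldehyde reductase Dhrs3 rose by 2.10 (SE 0.22) and the receptor Rarb fell by 1.36 (SE 0.25). The shares that rose in the Wnt, TGF-beta and retinoic acid lists were near the 35.3% of all genes.

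**Figure D4:**
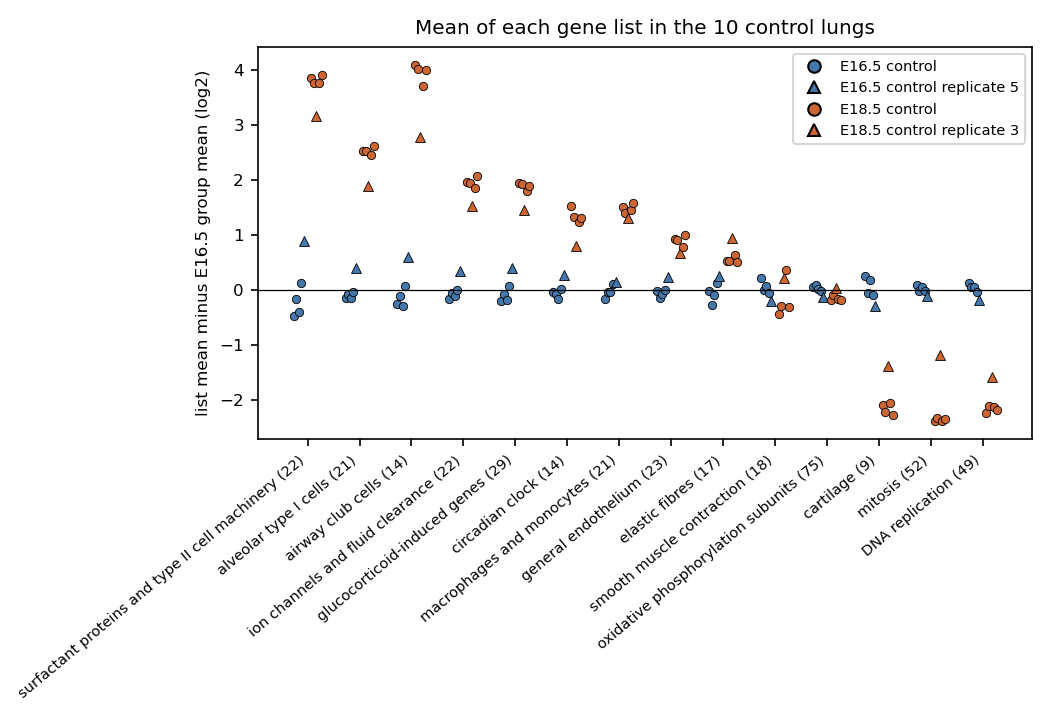
Mean log2 value of 14 gene lists in each control lung, minus the mean of the 5 E16.5 lungs, with the number of tested genes in brackets. Blue is E16.5, orange is E18.5, and triangles mark E16.5 replicate 5 and E18.5 replicate 3. The latter lies on the E16.5 side of the other E18.5 lungs in every list but elastic fibres and smooth muscle contraction.

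In the mesenchyme, 5 of 24 transcription factors rose and 11 fell (median -0.31), and Foxf1 (0.01, adjusted p = 0.947), Tbx4 (-0.15, adjusted p = 0.194) and Prrx1 (-0.13, adjusted p = 0.385) did not pass. Sox11, a factor of immature mesenchyme, fell by 2.04 (SE 0.24), and Tcf21, the factor of lipofibroblast progenitors, rose by 1.18 (SE 0.09). Few smooth muscle genes changed, with 3 of 18 that rose and 2 that fell (median -0.02), or 4 that fell without E18.5 replicate 3 or 4. Acta2, smooth muscle actin, read 13.61, 13.32, 13.23, 13.11 and 12.98 and then 12.55, 12.70, 13.12, 13.19 and 12.60 (-0.42, SE 0.14, adjusted p = 0.0112). The groups overlapped. The smooth muscle myosin Myh11 did not pass (-0.36, adjusted p = 0.0527), although it did without E18.5 replicate 4 (-0.52), without replicate 3 (-0.40) or without E16.5 replicate 2 (-0.42). Myh11 also passed with sex as a covariate (-0.42), array weights (-0.42), median centring (-0.39), quantile normalization (-0.37) or a robust variance model with a trend (-0.36). The coactivator Myocd fell by 1.58 (SE 0.23). Of 13 pericyte genes 9 rose and Heyl, given above, fell (median 0.64), among them Higd1b (2.79, SE 0.33), while Rgs5 stood at 0.13 (adjusted p = 0.555).

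Elastic fibre genes, which lay down the recoil of the future alveoli, rose in 10 of 17 cases, 8 by at least 2-fold, and 4 fell (median 0.85), or 2 without E16.5 replicate 4. Elastin, Eln, read 11.09, 10.81, 10.96, 11.15 and 11.58 at E16.5 and 13.24, 13.10, 12.64, 13.07 and 13.15 at E18.5 (1.92, SE 0.13, adjusted p = 6.59e-10), with no overlap. The assembly protein Fbln5 rose by 1.92 (SE 0.13), and the crosslinking enzyme Lox by 0.43 (SE 0.11), whose other probe set did not pass (0.11, adjusted p = 0.400). Fbn2, the fibrillin of developing tissue, fell by 1.77 (SE 0.24).

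Interstitial matrix genes rose in 18 of 36 cases and fell in 6 (median 0.35), or in 11 without E18.5 replicate 3 and in 3 with male controls only. Of the main fibrillar collagens, Col1a1 stood at -0.05 (SE 0.22, adjusted p = 0.843) and Col3a1 at 0.06 (SE 0.08, adjusted p = 0.56), and neither passed. Another probe set of Col1a1 rose by 0.29 (adjusted p = 0.0283) and another of Col3a1 stood at -0.27 (adjusted p = 0.0474), so that the probe sets disagree. Fibronectin Fn1 rose by 1.90 (SE 0.20), the matricellular protein Postn by 1.36 (SE 0.09) and Spon1 by 5.17 (SE 0.34). The proteoglycans Fmod (-2.67, SE 0.25) and Vcan (-2.02, SE 0.27) fell, the latter a component of the loose matrix of early tissue. In the basement membrane 12 of 20 rose and 3 fell, none of them with male controls only (median 0.72). The falls were Col18a1 (-1.39), Col4a6 (-1.12) and Col15a1 (-1.10), at -0.92, -0.68 and -0.23 with male controls only, and Col4a6 did not pass with sex as a covariate (-0.83, adjusted p = 0.0572). The general chain Col4a1 rose by 0.83 (SE 0.09) and Col4a3, a chain of the mature alveolar membrane, by 4.89 (SE 0.43) from dim in every E16.5 lung. Of 13 metalloproteases and inhibitors 6 rose and 5 fell, and the inhibitor Timp3 rose by 2.96 (SE 0.22).

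Cartilage genes fell together. Of 9 tested genes 7 fell, 6 by at least 2-fold, and none rose (median -1.98). The list includes Sox9, given above with the distal tip. Col9a1 read 8.37, 8.48, 8.19, 8.37 and 8.37 at E16.5 and 4.11, 4.0, 6.60, 3.63 and 3.23 at E18.5 (-4.04, SE 0.50), where replicate 3 stood out at the high end. Its other probe set fell less (-1.29, adjusted p = 0.000257). Col9a3 fell by 4.29 (SE 0.49) and Col2a1 by 1.92 (SE 0.42) to dim means. Cartilage rings surround the large airways, and how much of these a dissected lobe held was not tested. Among mesothelial genes 6 of 8 rose and Calb2 fell (-1.83, median of the list 1.06). Mesothelin, Msln, rose by 6.34 (SE 0.63) and the uroplakin Upk3b by 1.12 (SE 0.19). Of 12 neural adhesion genes 4 rose and 4 fell, or 1 fell with male controls only (median 0.14), with a fall of the polysialyltransferase St8sia2 (-1.49, SE 0.20).

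Endothelial genes rose in 21 of 23 cases, 11 by at least 2-fold, and fell in none (median 0.92), or in 1 without E18.5 replicate 3. Pecam1, the junctional adhesion molecule of all endothelium, read 8.90, 8.65, 8.85, 8.98 and 9.13 and then 10.11, 9.92, 9.87, 10.03 and 10.18 (1.12, SE 0.09, adjusted p = 3.75e-09), without overlap. Cadherin Cdh5 rose by 1.19 (SE 0.15) and the VEGF receptor Kdr by 1.15 (SE 0.13). Alveolar capillary genes rose in 11 of 13 cases (median 1.15). Car4, the carbonic anhydrase of the capillaries that line the alveoli, was dim in all E16.5 lungs (2.37, 2.45, 2.44, 2.46 and 2.45) and read 8.87, 9.19, 5.39, 8.42 and 9.17 at E18.5 (5.78, SE 0.72), with replicate 3 the lowest. Ednrb, the endothelin receptor of the same cells, did not pass (-0.32, adjusted p = 0.192), but fell without E18.5 replicate 3 (-0.56) or with array weights (-0.57). The apelin receptor Aplnr was the gene of that list that fell (-0.39), though at -0.26 with male controls only (adjusted p = 0.0964), and without E18.5 replicate 3 it and Ednrb fell.

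Lymphatic genes rose in 8 of 10 cases and Fxyd6 fell (-2.42, median of the list 0.78), the rises including Lyve1 (1.26, SE 0.14). Genes of vascular tone rose in 14 of 15 cases and fell in none (median 1.26), or in 1 without E18.5 replicate 3. Angiotensinogen Agt read 2.79, 2.77, 2.57, 2.68 and 4.02 at E16.5 and 8.48, 8.31, 7.59, 8.46 and 8.42 at E18.5 (5.29, SE 0.35), and the angiotensin-converting enzyme Ace, for which lung capillaries are a main site, rose by 2.56 (SE 0.21). Nitric oxide synthase Nos3 rose by 0.60 (SE 0.15) and endothelin Edn1 by 1.26 (SE 0.37), the latter at 0.96 with male controls only (adjusted p = 0.144).

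Embryonic globins, which belong to primitive red cells, fell. Hbb-y, an embryonic beta-type globin, read 12.88, 13.22, 13.10, 12.46 and 12.08 at E16.5 and 8.54, 7.95, 12.32, 8.72 and 8.95 at E18.5 (-3.45, SE 0.66, adjusted p = 0.000128). Hba-x, the embryonic alpha-type globin, read 8.26, 8.60, 8.35, 7.94 and 7.02 and then 3.68, 3.21, 8.13, 3.55 and 4.19 (-3.48, SE 0.71). In both, 4 E18.5 lungs were far below the E16.5 lungs and replicate 3 lay among them. Alas2, the first enzyme of heme synthesis in red cells, rose by 1.44 (SE 0.19). Of 7 tested erythroid genes 4 rose and the transferrin receptor Tfrc fell (-0.71, and -0.46 with male controls only, adjusted p = 0.147, median of the list 0.21), or 2 rose without E16.5 replicate 1 or E18.5 replicate 5.

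Macrophage and monocyte genes rose in 20 of 21 cases, 14 by at least 2-fold, and none fell (median 1.31). The members with the largest changes, Lyz2 and Fabp4, also stand in the type II and lipofibroblast lists given above. The receptor Csf1r read 7.95, 7.84, 7.97, 8.03 and 8.0 at E16.5 and 8.81, 8.79, 9.17, 8.91 and 9.02 at E18.5 (0.98, SE 0.09), with no overlap. The pore-forming protein Mpeg1 rose by 2.83 (SE 0.28), the lysosomal protein Cd68 by 1.68 (SE 0.30) and the mannose receptor Mrc1 by 0.78 (SE 0.13). The calgranulins S100a8 (3.5, SE 0.62) and S100a9 (4.85, SE 0.70), abundant in neutrophils, rose too. Of 4 tested neutrophil genes 3 rose, the calgranulins and Lcn2, which also stands in the glucocorticoid-induced list given above. The T cell gene Cd3e was dim (1.73 to 1.78), and both tested lymphocyte genes rose, the B cell gene Cd79b by 2.01 (SE 0.28). Of these 2 lymphocyte genes, 1 was dim in all E16.5 lungs and in no E18.5 lung, as was 1 of the 4 neutrophil genes.

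All 9 tested genes of class I antigen presentation and processing rose, 7 by at least 2-fold (median 1.89), and all 4 class II genes rose (median 2.21). In each of these lists 1 member was dim in all E16.5 lungs and in no E18.5 lung. The class I heavy chain H2-D1 rose by 1.90 (SE 0.16), its light chain B2m by 0.89 (SE 0.10) and the immunoproteasome subunit Psmb8 by 3.01 (SE 0.27). The class II invariant chain Cd74 rose by 3.56 (SE 0.49) and H2-Aa by 2.72 (SE 0.25). Histocompatibility genes are a family of close relatives, and probe sets may not separate them. Of 18 tested chemokine, cytokine and interferon genes 14 rose and 3 fell (median 1.69), and the interferon-induced membrane protein Ifitm3 rose by 1.89 (SE 0.15). The 2 largest of the 3 falls were the chemokines Ccl2 (-2.47) and Ccl11 (-2.47).

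The B2m promoter is shown because it holds the letters of the interferon-stimulated element, searched on both strands as 2 copies of GAAA with any 2 bases between them and set in capitals. It lies at chr2:122147507-122147706 on the plus strand (RefSeq, GRCm38.p6), and the match begins at -139.

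B2m: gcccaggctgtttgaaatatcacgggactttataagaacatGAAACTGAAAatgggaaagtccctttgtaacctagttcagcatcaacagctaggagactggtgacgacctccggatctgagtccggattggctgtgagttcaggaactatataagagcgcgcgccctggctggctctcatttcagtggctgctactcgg

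This element stood in 2 of 8 class I and processing promoters (25.0%) and 3 of 13 chemokine and interferon promoters (23.1%), against 3.12% of tested genes and 3.44% of all promoters. The E2F letters stood in as many class I and processing promoters (2 of 8, against 4.79% of tested genes). TTTGAA stood in 4 of 13 chemokine and interferon promoters (30.8%, against 11.8% of tested genes). TATAAA also stood in 4 of 13 of these (30.8%) and in 3 of 8 class I and processing promoters (37.5%), against 7.03% of tested genes. Whether any of these shares is particular to its list was not tested. Among complement genes 8 of 10 rose and 2 fell (median 1.33). The inhibitor Serping1 rose by 2.05 (SE 0.14), complement factor I, Cfi, fell by 3.96 (SE 0.27) and clusterin, Clu, fell by 1.92 (SE 0.29).

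Of 23 tested xenobiotic enzymes 20 rose, 17 by at least 2-fold (median 2.24), and 4 of the 23 were dim in all E16.5 lungs and in no E18.5 lung. The 3 that fell were Cyp7b1 (-0.73) and the glutathione transferases Gstm5 (-0.68) and Gstp1 (-0.34). The methyltransferase Inmt read 2.31, 2.40, 2.38, 2.38 and 2.36 at E16.5, dim in every lung, and 9.38, 8.71, 4.39, 9.10 and 9.25 at E18.5 (5.80, SE 0.64), with replicate 3 by far the lowest. The cytochrome Cyp2e1 rose by 5.92 (SE 0.27), the monooxygenase Fmo2 by 4.16 (SE 0.39) and the epoxide hydrolase Ephx1 by 3.5 (SE 0.25). Antioxidant genes rose in 16 of 25 cases and fell in 6 (median 0.52), among the latter Gpx2 (-1.5) and Txnrd1 (-1.07). The ferroxidase ceruloplasmin, Cp, rose by 5.62 (SE 0.47) and the extracellular glutathione peroxidase Gpx3 by 2.35 (SE 0.19), while the cytosolic superoxide dismutase Sod1 rose by only 0.22 (SE 0.06), and its other probe set did not pass (0.0027, adjusted p = 0.974). All 10 tested S100 genes rose without overlap (median 2.33). The calcium-binding protein S100g was dim at E16.5 (2.01, 2.05, 2.07, 2.05 and 2.06) and read 10.07, 9.80, 7.65, 9.59 and 9.71 at E18.5 (7.32, SE 0.73), and S100a6 rose by 2.05 (SE 0.17).

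Of 75 respiratory chain subunits 6 rose and 31 fell (median -0.12), 15 with male controls only, and none of the falls reached 2-fold. Ndufa9 of complex I fell by 0.31 (SE 0.05), Cox6a1 of complex IV by 0.41 (SE 0.08, another probe set -0.04, adjusted p = 0.649) and Atp5b of the ATP synthase by 0.20 (SE 0.07), the last at -0.16 with male controls only (adjusted p = 0.177). Of 42 ribosomal protein genes 1 rose and 9 fell, 2 of them by at least 2-fold (median -0.05). Without E18.5 replicate 3 and E16.5 replicate 5 together 16 fell, and with male controls only 5 fell. In all controls Rps3 stood at -0.02 (adjusted p = 0.809). Glycolysis and glycogen genes rose in 13 of 25 cases, 3 by at least 2-fold, and fell in 7, or 3 with male controls only (median 0.21), with Aldoc (3.24, SE 0.34) and the glycogen phosphorylase Pygl (1.07, SE 0.17) among those that rose.

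Of 135 tested solute carriers 58 rose and 29 fell (median 0.19), and 6 were dim in all E16.5 lungs and in no E18.5 lung. Slc10a6, a carrier of sulfated steroids, was dim in all E16.5 lungs (2.08, 2.12, 2.11, 2.10 and 2.55) and read 8.08, 7.92, 6.85, 7.22 and 7.93 at E18.5 (5.41, SE 0.17, adjusted p = 7.67e-14). Slc7a10, a carrier of small neutral amino acids, rose by 4.03 (SE 0.27), also from dim. The dipeptidase Dpep1, among the 15 largest rises, rose by 6.78 (SE 0.44).

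Patterning and chromatin genes mostly fell. Of 9 tested Hox genes 8 fell and none rose (median -0.85). Hoxb5, which acts in airway branching, fell by 1.69 (SE 0.11), and Hoxa5, which the lung needs at birth, by 0.30 (SE 0.07). Of 28 chromatin, splicing and high mobility group genes 24 fell, 12 by at least 2-fold (median -0.91). The chromatin protein Hmgb2 fell by 1.45 (SE 0.15), the histone methyltransferase Ezh2 by 1.70 (SE 0.13) and lamin B1, Lmnb1, by 2.45 (SE 0.30). The member that rose was lamin A, Lmna (0.68).

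Markers of other tissues were followed as a measure of what the dissection carried along. Cardiac muscle genes, which pulmonary vein walls also express, rose in 14 of 15 cases (median 1.60), but in only 3 of 15 without overlap, and in 6 with male controls only. Their list mean ranged from 4.91 to 7.07 over the E16.5 lungs and from 6.81 to 7.73 over the E18.5 lungs. The myosins Myh6 (1.82, SE 0.56) and Myl7 (1.24, SE 0.39) and troponin Tnnt2 (1.29, SE 0.35) overlapped between the stages and did not pass with male controls only, where they stood at 1.73, 0.93 and 1.05. Of 15 liver markers 2 were tested and both rose. Albumin Alb read 3.30, 4.35, 3.60, 3.39 and 3.71 and then 6.89, 4.35, 6.14, 7.05 and 4.37 (2.09, SE 0.53), and Afp read 3.72, 5.91, 3.73, 4.49 and 3.80 and then 8.02, 5.64, 7.22, 7.35 and 4.33 (2.18, SE 0.81, adjusted p = 0.0222). Afp lost its call without E18.5 replicate 1 (1.81) or replicate 4 (1.97). Cela1 (5.12, SE 0.60) and Cpa1 (2.09, SE 0.23), listed as pancreatic enzymes, rose without overlap, and the other gut and pancreas markers were not tested. Of these 2 genes, 1 was dim in all E16.5 lungs and in no E18.5 lung. The pancreas factor Pdx1 was dim (2.27 to 2.38), and whether Cela1 and Cpa1 came from pancreas or from lung was not tested. Of 5 tested skeletal muscle genes 3 rose, among them Ckm (2.27, SE 0.42), and of 3 tested neural markers 2 rose and Fabp7 fell (-1.10, SE 0.44), a call that 5 of the 10 control arrays could each end when left out. None of the 12 markers of thymus, thyroid and brown fat was tested, and the thyroid gene Tg was dim (1.87 to 1.92). The part of other tissues in the changes above was not tested.

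The study removes the receptor from the mesenchyme, and the 15 largest rises and 15 largest falls were compared with the change in the mutants. In the mutants Nr3c1 itself read 6.31, 7.22, 7.50, 7.10 and 7.19 at E16.5 and 7.80, 7.56, 8.05, 7.67 and 7.89 at E18.5 in replicates 1 to 5, below every control of the same stage. Whole lobes also hold cells that keep the receptor. At E16.5, 5 of 5 mutants and 1 of 5 controls were female. At E18.5, mutant replicates 2 and 4 and control replicates 1, 4 and 5 were female. The share of females thus fell between the stages in mutants and rose in controls. Over all genes 4538 changed between the stages in the mutants (56.2%), and the change differed between controls and mutants in 678 (8.4%), with the control change the more positive in 386 (4.78%). Of the 30 genes, all but Inmt and Col9a1 also changed in the mutants (28), and in 28 the mutant change was the smaller one. The exceptions were Hbb-y (-5.41 in mutants) and Hba-x (-5.33), whose falls were the larger in mutants. The difference itself passed in 13 of the 30, 7 rises and 6 falls. The 30 were ranked by the control change that enters each of these comparisons, which by itself favours smaller changes in mutants, so the counts are a description and are not to be read against the share of all genes. In the list of rises, Inmt rose by 5.80 in controls and stood at 0.35 (SE 0.64) in mutants. The 2 changes differed by 5.45 (SE 0.90, adjusted p = 0.0011). Dpep1 rose by 6.78 and 2.58, a difference of 4.2 (SE 0.62, adjusted p = 0.000388). Differences also passed for Car4 (3.85), Lcn2 (3.48), Aqp5 (2.02), Scd1 (1.97) and Cyp2e1 (1.44), and for the falls of Cldn6 (-3.15), Col9a1 (-3.05), Psrc1 (-2.3), Lrr1 (-1.83), Cenph (-1.55) and Mcm10 (-1.49). For the first surfactant and club cell genes of the ranking no difference passed: Sftpd rose by 8.26 and 7.04 (difference 1.21, SE 0.67, adjusted p = 0.276) and Scgb1a1 by 6.92 and 5.87 (difference 1.05, SE 0.64, adjusted p = 0.326), which does not show that they changed alike.

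**Figure D5:**
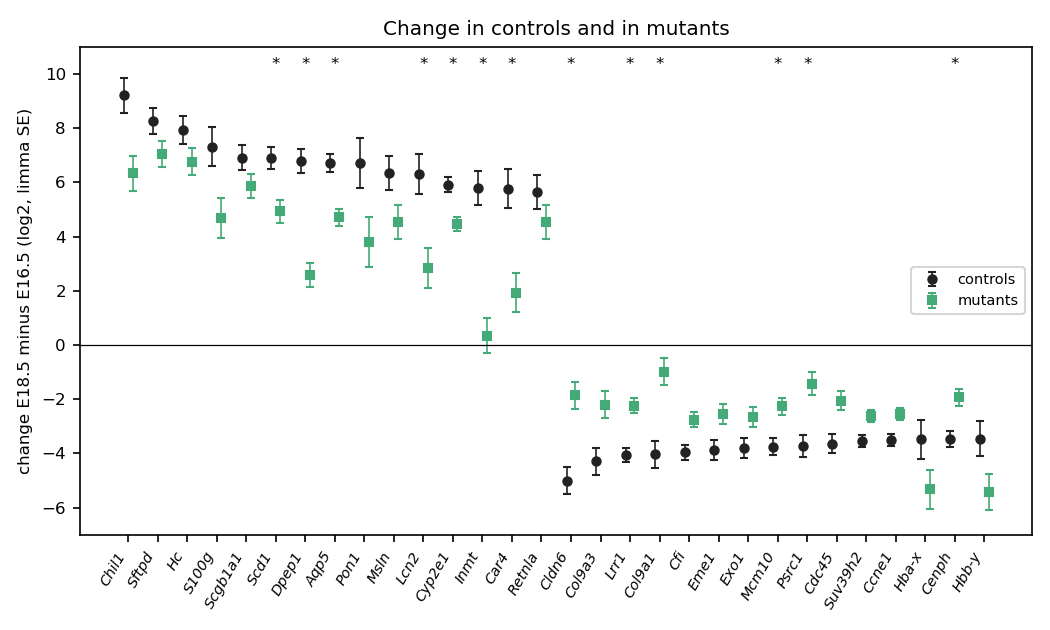
Change from E16.5 to E18.5 (log2, with limma's standard error) in controls (black circles) and in mutants (green squares) for the 30 genes of the ranking in controls, 15 rises and then 15 falls. Stars mark the 13 genes whose difference between the genotypes passed at an adjusted p under 0.05.

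Leaving out each of the 20 arrays in turn kept the call of the difference for 7 of the 13 genes, Dpep1, Aqp5, Inmt, Cldn6, Lrr1, Col9a1 and Psrc1. It was kept without 15 of the 20 arrays for Cyp2e1 (1.28 to 1.74), without 14 for Car4 (3.47 to 4.56), without 8 for Cenph (-1.79 to -1.40), without 5 for Mcm10 (-1.81 to -1.29) and without 4 each for Scd1 (1.63 to 2.29) and Lcn2 (2.90 to 4.25). With sex as a covariate 5 of the 13 passed, Dpep1 (3.74), Aqp5 (2.29), Lcn2 (4.68), Inmt (4.64) and Lrr1 (-1.80), and the other 8 kept their direction. The number of genes with a difference moved with single arrays. It was 1445 without E18.5 control replicate 3 and 393 without E18.5 control replicate 5. Beyond the 30, and picked after its values were seen, Slc10a6 rose by 5.41 in controls and stood at 0.01 (SE 0.17) in mutants, a difference of 5.40 (adjusted p = 4.56e-11).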

How the data were processed

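RNA of 20 left lung lobes was measured on Affymetrix Mouse430A_2 arrays, 1 embryo per array. The deposited log2 values had been made by the authors with GCRMA, per the submitters' processing notes, in a version not stated there. GCRMA removes background by a model and leaves unexpressed probe sets at a low floor, which limits changes of dim genes. Of 22690 probe sets, 20380 name 1 gene, 691 several and 1555 none, and 64 are controls; for each of 12393 genes the probe set with the highest mean was used, and genes above log2 4 in at least 5 of 20 arrays were tested. A model with 4 group means was fitted with limma 3.58.1 in R 4.3.3 (lmFit, eBayes), with Benjamini-Hochberg adjustment over 8068 genes, and was tested on simulated data. Controls and mutants were compared by the contrast of their 2 changes. Promoters came from RefSeq (GRCm38.p6) by symbol, and only genes with a single promoter were counted. Alternatives changed the filter, normalization, probe sets, variance model, arrays and sex term.

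The genes and the 67 gene lists were chosen with earlier results of these data known. Named were the 15 largest rises and falls, up to 4 changed members with the largest change per list, anchor genes of the lists, and a few genes picked after their values were seen.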

Additional observations from a re-analysis of the deposited data

Results flagged for a closer look

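In each control group of 5, the gap between an end value and its neighbour was set against the range of the group, and a ratio above 0.71 marks an array far from the others. Among 664 groups of 5 values, for the genes and list means named here, 134 were marked, where chance marks about 1 group in 20. E18.5 control replicate 3 was the marked array in 100 of them and E16.5 control replicate 5 in 22. All values below are log2 values of the marked array.

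The list means of E18.5 control replicate 3 that lay below the rest were 10.09 for alveolar type I cells, 10.87 for corticosteroid receptors and steroid metabolism, 6.59 for oesophagus, stomach and pancreas, 11.70 for surfactant proteins and type II cell machinery and 8.47 for xenobiotic metabolism. E18.5 control replicate 3 lay below the others in Abca3 (11.15), Ace (7.85), Acly (10.94), Ager (12.86), Agt (7.59), Akr1c14 (9.95), Bmp2 (4.56), Car4 (5.39) and Cbr2 (12.89). The same held for Cdkn2b (8.91), Chil1 (10.33), Cldn18 (12.12), Cp (7.58), Cry1 (8.99), Cxcl15 (13.84), Dpep1 (9.44), Eln (12.64) and Ephx1 (7.90). So did it in Fgf1 (8.28), Fgfr4 (7.79), Fkbp5 (8.46), Fos (5.50), Foxa1 (9.90), Gpam (11.45), Gpx3 (10.31), Hc (9.58) and Id2 (12.88). Further genes were Ier3 (10.38), Ifitm3 (12.40), Igfbp6 (9.38), Igfbp7 (11.14), Il33 (8.19), Inmt (4.39), Klf4 (10.76), Klf9 (11.47) and Lyve1 (10.77). Msln (10.21), Npas2 (4.45), Nr3c1 (9.02), Pon1 (5.65), S100g (7.65), Scd1 (11.28), Scgb1a1 (13.47), Scnn1a (5.55) and Scnn1b (5.04) followed. Others were Scnn1g (8.49), Slc7a10 (4.44), Spon1 (8.96), Sult1a1 (8.97), Timp3 (10.89), Tsc22d3 (9.29), Txnrd1 (9.05), Vegfa (9.92) and Zbtb16 (3.31). The list means of E18.5 control replicate 3 that lay above the rest were 8.32 for DNA replication, 9.72 for IGF ligands, receptors and binding proteins, 5.0 for cartilage, 10.39 for chromatin, splicing and high mobility group genes, 10.23 for embryonic globins and 9.85 for glycolysis and glycogen. Further list means were 10.07 for keratins, cadherins and tight junctions, 9.10 for mesothelium and 9.28 for mitosis. E18.5 control replicate 3 lay above the others in Aurkb (8.94), Ccl11 (9.03), Cdc20 (11.53), Cdc45 (4.79), Cdk1 (10.80), Cdkn2c (8.16), Cldn6 (6.56), Clu (12.44) and Col15a1 (6.44). The same held for Col18a1 (10.84), Col9a1 (6.60), Ednrb (9.11), Eme1 (4.62), Epcam (10.88), Ezh2 (9.18), Fbn2 (10.40), Fmod (11.11) and Foxm1 (5.98). So did it in Hba-x (8.13), Hbb-y (12.32), Hmgb2 (12.19), Igf2 (12.66), Igfbp2 (9.37), Krt19 (12.54), Lox (13.08), Lrr1 (5.50) and Mcm2 (8.50). Further genes were Plk1 (8.96), Rps3 (14.03), Top2a (10.87), Vcan (9.73) and Wnt2 (9.95).

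The list means of E16.5 control replicate 5 that lay below the rest were 8.0 for cholesterol synthesis and uptake. E16.5 control replicate 5 lay below the others in Aurkb (10.14) and Cpa1 (4.40). The list means of E16.5 control replicate 5 that lay above the rest were 8.61 for alveolar type I cells, 9.22 for basement membrane, 7.89 for immediate-early genes and 9.69 for keratins, cadherins and tight junctions. E16.5 control replicate 5 lay above the others in Abca3 (10.08), Ace (6.59), Agt (4.02), Aqp1 (8.54), Aqp5 (2.34), Chil1 (2.99), Cldn18 (12.15), Col15a1 (7.06) and Fgfr4 (7.91). The same held for Hc (4.74), Mpeg1 (7.22), Sftpd (6.03), Slc10a6 (2.55), Tppp3 (8.54) and Zbtb16 (4.18).

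Other arrays were marked in basement membrane (E18.5 control replicate 4, 9.17), hedgehog signalling (E16.5 control replicate 2, 8.48), liver (E16.5 control replicate 2, 5.13), skeletal muscle (E16.5 control replicate 4, 6.81), Car4 (E16.5 control replicate 1, 2.37), Col9a3 (E16.5 control replicate 3, 8.39), Elovl1 (E16.5 control replicate 3, 9.82), Ndufa9 (E18.5 control replicate 5, 11.02), Notum (E18.5 control replicate 1, 6.28), Rsad2 (E16.5 control replicate 4, 3.79), Spry1 (E18.5 control replicate 1, 9.27) and Tubb4b (E16.5 control replicate 3, 12.26).

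The change from E16.5 to E18.5 differed between controls and mutants, by the test of the difference itself (limma, adjusted p under 0.05), in 13 of the 30 genes with the largest changes. As the control change minus the mutant change, the differences were Scd1 (1.97), Dpep1 (4.2), Aqp5 (2.02), Lcn2 (3.48), Cyp2e1 (1.44), Inmt (5.45) and Car4 (3.85) among the rises. They were Cldn6 (-3.15), Lrr1 (-1.83), Col9a1 (-3.05), Mcm10 (-1.49), Psrc1 (-2.3) and Cenph (-1.55) among the falls.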

How the results depend on the processing

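The number of genes that changed between the stages in controls ranged from 4721 (male controls only, 4 at E16.5 and 2 at E18.5) to 6358 (array weights) over the settings that kept the threshold, and shared calls kept their sign except for 2 genes with the mean of probe sets. With each control array left out in turn it ranged from 5466 to 5809, with 2724 to 2894 higher and 2728 to 2944 lower. Requiring 1.5-fold left 3171, with 1747 higher and 1424 lower. Male controls only and leaving out both outlying arrays were chosen after seeing the data.

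The number of genes whose change differed between controls and mutants moved more, from 393 without E18.5 control replicate 5 to 1445 without E18.5 control replicate 3, and was 166 at an adjusted p under 0.01, 403 with sex as a covariate and 2244 with array weights. With the replicate number as a block 5791 genes changed in controls. Same-numbered embryos of the 2 stages correlated at -0.38, 0.05, 0.17, 0.08 and 0.40 in their deviations from the group means. The labels do not say whether equal numbers share a litter or day, and 5 such correlations cannot decide it.

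With male controls only, counts of the lists that moved by over 1.5 times beside those given above were 15 falls in oxidative phosphorylation, 6 rises in FGF signalling and in cardiac muscle, 3 rises in mesenchymal transcription factors, 3 falls in interstitial matrix and in metalloproteases, 2 falls in elastic fibres, 2 rises in ribosomal proteins, 1 rise in cholesterol synthesis, smooth muscle, erythroid and liver genes, 1 fall in immediate-early genes, 0 rises in hedgehog and let-7 genes, and 0 falls in ciliated, hypoxia, capillary, erythroid and neuron genes.

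Over the genes named here, 6088 combinations of gene and setting gave 6022 calls of the same kind, 37 lost and 29 gained calls, and 0 reversals. Their causes were not tested. Sizes of change are limited where one stage is dim, and 4325 genes were too dim to test.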

Other observations

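Outside the lists, several interferon-induced genes stood among the larger rises in controls. They were picked out after their values were seen and get no count or test as a group. Rtp4, a chaperone of receptors that interferon induces, read 3.81, 3.34, 3.37, 4.65 and 4.22 in E16.5 controls 1 to 5 and 9.76, 9.23, 7.74, 9.92 and 10.19 in E18.5 controls 1 to 5, a change of 5.49 (SE 0.54). The oligoadenylate synthetase-like gene Oasl2 changed by 5.43 (SE 0.54), the ISG15 protease Usp18 by 5.18 (SE 0.40) and the antiviral enzyme Rsad2 by 4.55 (SE 0.42). Oasl2, Usp18 and Rsad2 were dim in all 5 E16.5 lungs and in none of the E18.5 lungs. Over all genes tested, 126 were dim in all E16.5 controls and in no E18.5 control, and 27 showed the reverse.

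Where a gene had a second tested probe set, 3882 of 4449 such probe sets changed in the same direction as the one used. For genes with a 2-fold change it was 705 of 707. Probe sets that name several genes or none were not used above. Of the 993 such probe sets tested, 270 were higher and 373 lower at E18.5.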
